A study of Rattus norvegicus with 58 samples.

Results

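The genes of fatty acid oxidation, and the classical target genes of the nuclear receptor PPAR alpha among them, were followed in rat liver and kidney after oral 4-methylcyclohexanemethanol (MCHM), an alicyclic alcohol used in washing coal. The members were 49 gene names in 9 roles, and a probe set counted as a member where its only gene symbol was on that list. Of the 49, 48 had a probe set of their own, and these held 67 of the 31042 probe sets on the array, which name 14217 genes. Cyp4a2 was measured only by a probe set it shares with Cyp4a3. After a filter on low values, 47 members were tested in liver, where Acot1 did not pass, and 47 in kidney, where Fabp1 did not pass.

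Long-chain fatty acids are taken up, activated to acyl-CoA and carried into mitochondria by the carnitine shuttle, where each turn of beta-oxidation shortens the chain. Very long and branched chains start in peroxisomes, and omega-hydroxylation by CYP4A enzymes opens a side route. PPAR alpha, bound to fatty acids or to drugs such as fibrates, switches on genes of all these routes, and in rodent liver its activation strongly raises peroxisomal enzymes and CYP4A.

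Male Harlan Sprague-Dawley rats received MCHM by gavage over 5 days at 0.1, 1, 10, 100, 300 or 500 mg/kg, and controls were given 0 mg/kg by the same route. Each organ had 4 arrays per dose and 5 controls, which makes 29 arrays for liver, 29 for kidney and 58 in all. Arrays within a group are labelled as biological replicates, with neither an age nor a link between a liver and a kidney stated. Values are log2 levels made with RMA, which summarises the probes of a set, and a difference of 1 is a 2-fold change. A gene is called here where the Benjamini-Hochberg adjusted p of limma's test, taken over all genes of the organ, was under 0.05.

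Marker levels matched the labelled organs, and 3 kidney arrays also carried transcripts of another tissue. The median level per array was 5.26 to 5.31 for liver samples and 5.33 to 5.37 for kidney samples. The summed level of 7 hepatocyte markers, on the log2 scale, was 16.48 to 16.50 on liver arrays at 500 mg/kg and 16.51 to 16.57 in liver controls. The summed level of 7 proximal tubule markers was 14.77 to 14.95 on kidney arrays at 500 mg/kg and 14.59 to 14.93 in kidney controls. Replicate 3 of the kidney at 300 mg/kg and replicate 3 at 500 mg/kg carried fat transcripts: 7 of 9 measured adipose markers were above the highest of the 27 other kidney arrays on both. Ucp1, the uncoupling protein of brown fat, read 13.80 and 12.41 on these arrays, and no other kidney array was above 7.34, while leptin (Lep) stayed within the range of the others. Replicate 2 of the kidney controls carried liver transcripts: 6 of 7 hepatocyte markers were above the 28 other kidney arrays, with albumin (Alb) at 10.19, where the others reached at most 7.28. In whole tissue, fewer cells of a type and less RNA per cell cannot be told apart.

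The promoters below are those of the 3 called liver genes whose promoter was in the reference table, with that of Fabp1 as the member promoter that held a near-complete receptor motif. Each runs from 250 bases before to 50 bases after the annotated start, from RefSeq on build GRCr8, 5′ to 3′ on the gene's own strand, which is the plus strand for all 4. Capitals mark the nuclear receptor core motif AGGTCA, or a repeat of near-core motifs 1 base apart, on either strand. Ehhadh lies at chr11:92746159-92746458, Eci1 at chr10:13961000-13961299, Bdh2 at chr2:226376106-226376405 and Fabp1 at chr4:104749090-104749389.
Ehhadh: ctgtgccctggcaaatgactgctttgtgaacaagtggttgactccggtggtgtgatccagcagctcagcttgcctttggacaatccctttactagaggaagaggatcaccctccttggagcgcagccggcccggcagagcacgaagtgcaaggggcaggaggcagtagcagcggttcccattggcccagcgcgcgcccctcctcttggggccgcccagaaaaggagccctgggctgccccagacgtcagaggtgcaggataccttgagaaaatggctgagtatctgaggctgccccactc
Eci1: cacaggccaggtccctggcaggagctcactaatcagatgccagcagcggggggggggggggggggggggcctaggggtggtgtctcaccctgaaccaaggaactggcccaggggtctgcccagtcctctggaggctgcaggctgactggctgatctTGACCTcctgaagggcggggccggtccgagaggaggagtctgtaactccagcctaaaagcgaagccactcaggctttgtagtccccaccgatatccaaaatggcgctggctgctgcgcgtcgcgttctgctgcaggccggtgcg
Bdh2: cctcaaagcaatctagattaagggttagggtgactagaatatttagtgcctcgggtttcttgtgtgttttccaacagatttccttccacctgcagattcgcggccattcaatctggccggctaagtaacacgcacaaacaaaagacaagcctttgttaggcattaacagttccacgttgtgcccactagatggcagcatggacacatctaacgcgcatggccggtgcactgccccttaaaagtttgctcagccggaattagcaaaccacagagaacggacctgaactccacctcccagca
Fabp1: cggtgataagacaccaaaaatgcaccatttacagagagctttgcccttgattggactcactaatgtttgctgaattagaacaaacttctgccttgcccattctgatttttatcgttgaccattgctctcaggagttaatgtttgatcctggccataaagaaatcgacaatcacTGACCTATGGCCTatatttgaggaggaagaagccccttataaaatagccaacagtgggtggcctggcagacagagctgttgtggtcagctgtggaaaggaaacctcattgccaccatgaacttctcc

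Of the 49 listed names, 43 had a promoter in the table. Acaa2, Acadl, Cpt1b, Cyp4a1, Decr1 and Vnn1 had no entry. The core motif AGGTCA occurred on either strand in 11 of the 43 member promoters and in 16.2% of 33469 promoters of the same length. The 11 were Acadvl, Acot4, Cyp4a2, Cyp4a3, Echs1, Eci1, Eci2, Fabp1, Hadhb, Hsd17b4 and Slc27a2. The full direct repeat AGGTCANAGGTCA, which overlaps the core motif by construction, was in 0 of the 43 and in 0.0538% of all promoters. A looser form, AGGNCANAGGNCA, was in 0.415% of all promoters and in 1 member. That member was Fabp1, with AGGCCATAGGTCA on the minus strand at positions -77 to -65 counted from the start. In Eci1 a lone core motif lay on the minus strand at positions -94 to -89. The windows of Ehhadh and Bdh2 held none of these letters. A match is a description of the sequence and not a bound site.

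In liver at 500 mg/kg, 4 of the 47 members rose and 0 fell, against 0.958% of all 11275 genes called in either direction, 0.488% higher and 0.47% lower. The 4 were Ehhadh, the bifunctional enzyme of peroxisomal beta-oxidation; Cyp4a1, a fatty acid omega-hydroxylase; Eci1, a mitochondrial isomerase that prepares unsaturated chains for oxidation; and Bdh2, a dehydrogenase annotated to ketone body metabolism. The rises were between 1.56-fold and 1.74-fold. The other 43 did not pass, and 39 of the 47 differed from control by less than 0.25 on the log2 scale. The median difference of the 47 was 0.03, with 28 above 0, and that of all genes tested was 0.01.

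**Figure D1:**
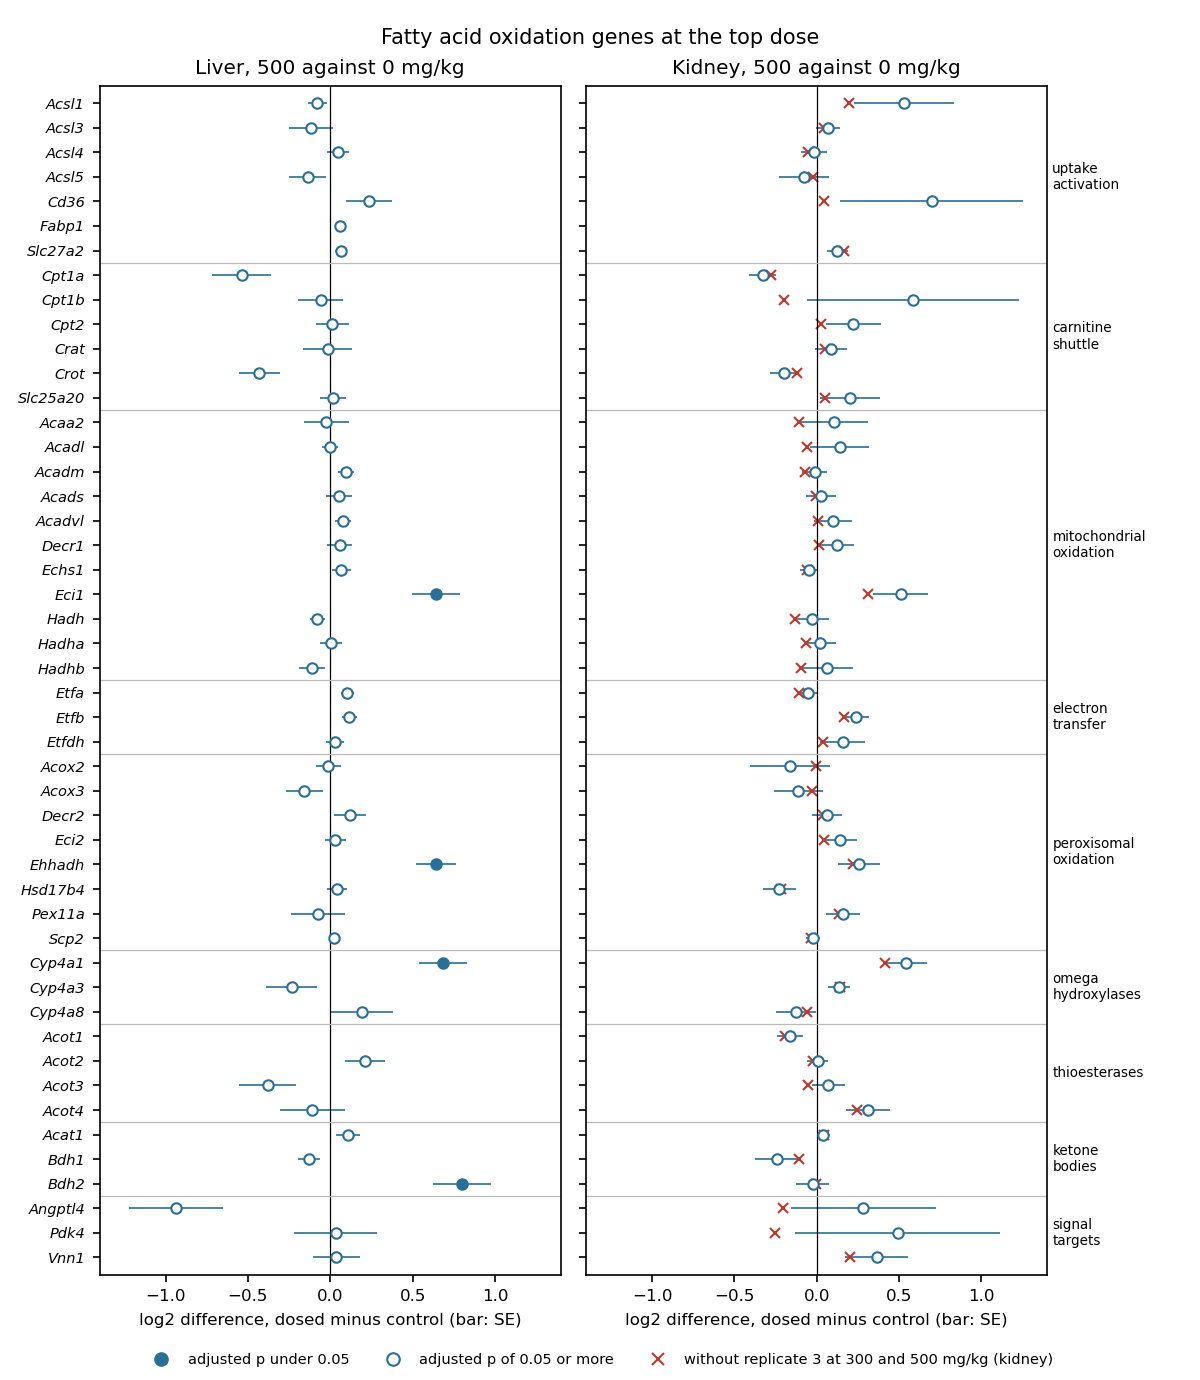
Log2 difference between 500 mg/kg and control for each member, grouped by role, in liver (left) and kidney (right); bars are the standard error of the fit, filled points are called genes and red crosses are the kidney values without replicate 3 at 300 and 500 mg/kg. In liver 4 points are filled, between 0.64 and 0.80, and in kidney none is.

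Ehhadh read 11.60, 11.99, 11.96 and 11.48 on the liver arrays at 500 mg/kg, against 10.92, 11.33, 11.14, 11.04 and 11.14 in controls. Every dosed array was above every control. The difference was 0.64 (SE 0.12, limma adjusted p = 0.00787), or 1.56-fold, higher in 4 of 4 arrays. At 300 mg/kg Ehhadh read 11.44, 11.11, 11.37 and 11.51, a difference of 0.24 (SE 0.12, adjusted p = 0.631), and replicate 2 lay within the control range. At 0.1, 1, 10 and 100 mg/kg the differences were between -0.07 and -0.01, so that the means at these doses stood at control level.

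Cyp4a1 read 11.66, 11.40, 12.01 and 11.66 on the liver arrays at 500 mg/kg, against 10.90, 11.35, 11.07, 10.82 and 10.85 in controls. The groups did not overlap, although the lowest dosed array and the highest control were 0.05 apart. The difference was 0.69 (SE 0.15, adjusted p = 0.0217), or 1.61-fold. At 300 mg/kg it was 0.05 (SE 0.15, adjusted p = 0.957), and at the 4 lower doses it lay between -0.05 and 0.09. The mean of this gene was thus within 0.1 of control at every dose but the top one, whereas those of Ehhadh and Eci1 were further above control at 300 mg/kg.

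Eci1 read 12.07, 12.20, 12.59 and 12.08 at 500 mg/kg, against 11.55, 11.64, 11.56, 11.58 and 11.63 in controls. The controls were tightly grouped (SD 0.04) and every dosed array was above them, for a difference of 0.64 (SE 0.15, adjusted p = 0.0281). At 300 mg/kg the 4 arrays were also above every control, at 11.99, 11.83, 11.72 and 11.64, with a difference of 0.21 (SE 0.15, adjusted p = 0.774). At 1 and 10 mg/kg single arrays were far lower, down to 10.82, and the differences were -0.24 and -0.27. A second, dim probe set of Eci1 ran the other way: it read 4.07, 3.97, 3.81 and 3.70 at 500 mg/kg, against 4.42, 4.30, 4.61, 4.26 and 4.37 in controls. That probe set did not pass the filter on low values and was not tested.

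Bdh2 read 5.85, 6.18, 5.69 and 5.61 at 500 mg/kg, against 5.04, 5.16, 4.92, 5.28 and 4.77 in controls. The groups did not overlap, and the difference was the largest of the 4 at 0.80 (SE 0.18, adjusted p = 0.0245), or 1.74-fold. The liver control values lay near the median of their arrays, so the gene was dim there, whereas in kidney controls it read 10.38 ± 0.16 (SD, n = 5). The mean difference was 0.41 at 1 mg/kg, 0.46 at 10 mg/kg and 0.36 at 300 mg/kg (adjusted p = 0.631 at 300 mg/kg), so that the means lay above control below the top dose too. Single liver arrays at lower doses lay within the range of the top dose, with 5.84 at 1 mg/kg, 5.94 and 5.82 at 10 mg/kg and 5.78 at 100 mg/kg. The spread at 10 mg/kg (SD 0.45) was wider than at 500 mg/kg (SD 0.25).

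**Figure D2:**
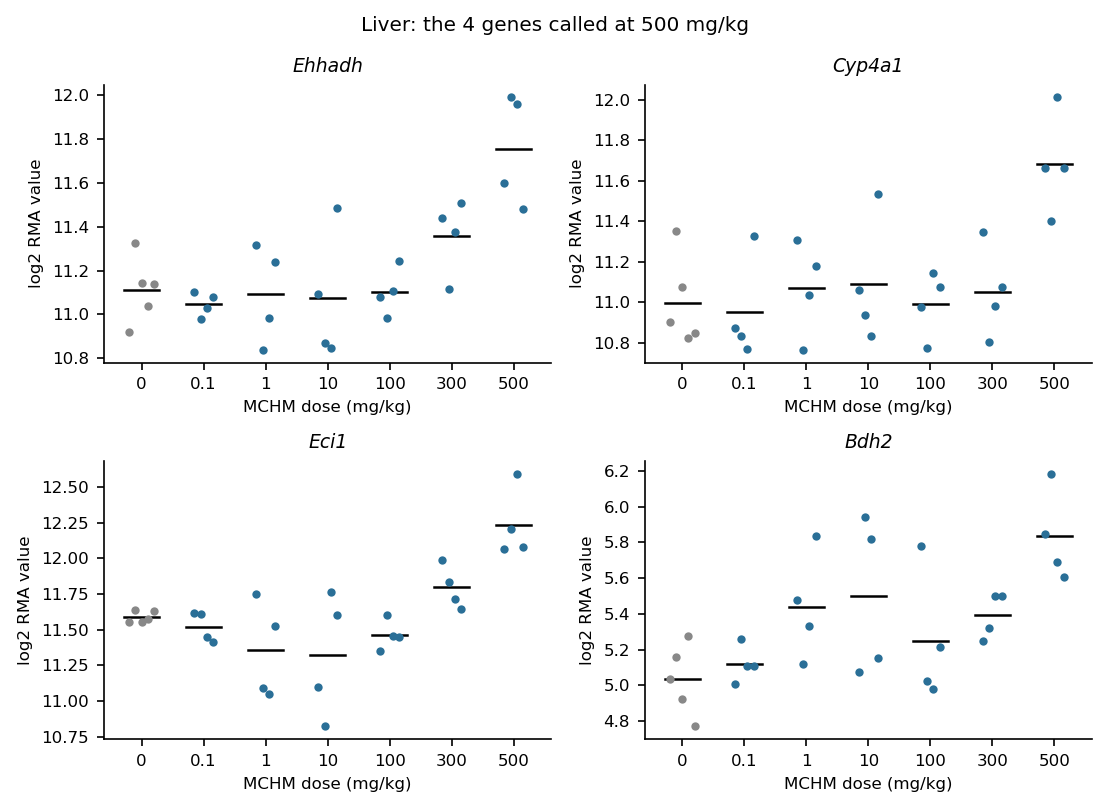
Log2 RMA value of Ehhadh, Cyp4a1, Eci1 and Bdh2 on each liver array by dose in mg/kg; grey points are controls, blue points dosed arrays and bars the group means. At 500 mg/kg every array is above every control in all 4 panels, and for Bdh2 4 arrays at 1, 10 and 100 mg/kg lie between 5.78 and 5.94.

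The same 4 members were those of the 47 whose liver arrays at 500 mg/kg did not overlap with controls, all above, against 5.59% of all genes whose groups did not overlap. At 300 mg/kg these were Eci1 above and Hadh below, against 3% of all genes, and at 10 mg/kg Acox2 above, against 2.41%. Acox2, a peroxisomal oxidase of branched chains and bile acid precursors, read 11.58, 11.74, 11.53 and 11.47 at 10 mg/kg, against 11.42, 11.30, 11.19, 11.31 and 11.37 in controls. Its difference at the top dose was -0.01. At 0.1, 1 and 100 mg/kg 0 members were apart from controls, against 1.48%, 2.4% and 1.51% of all genes.

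At 0.1, 1, 10, 100 and 300 mg/kg limma called 0 members in liver. Of all genes it called 0% at the 4 lower doses and 0.0266% at 300 mg/kg. The members that had an unadjusted p under 0.05 numbered 1, 6, 4, 0 and 3 in that order of dose, against 4.1%, 5.83%, 6.39%, 3.68% and 7.89% of all genes. Those at the top dose numbered 10 of 47, against 13.9% of all genes. The trend over the 7 dose ranks called 2 of 47 members, against 1.84% of all genes, and 13 had an unadjusted p under 0.05, against 16.6%. Bdh2 rose by 0.10 per dose rank on the log2 scale (SE 0.03, adjusted p = 0.0359) and Ehhadh by 0.09 per dose rank (SE 0.02, adjusted p = 0.0189). Cyp4a1 had a slope of 0.08 (adjusted p = 0.0909) and Eci1 of 0.09 (adjusted p = 0.0861). With dose in mg/kg as the term in place of its rank, 11 members were called in liver, against 7.21% of all genes. They were Acot3, Acsl1, Angptl4, Bdh1, Bdh2, Cpt1a, Cyp4a1, Eci1, Ehhadh, Etfa and Etfb. At 500 mg/kg the means of Acot3, Acsl1, Angptl4, Bdh1 and Cpt1a were below control, and those of the others above.

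Of these calls, that of Ehhadh at 500 mg/kg held under each of the 17 alternatives tried, with differences from 0.57 to 0.74 and adjusted p from 0.0045 to 0.038. Cyp4a1 lost its call in 5 of 17, Eci1 in 6 of 17 and Bdh2 in 4 of 16. Without replicate 5 of the controls, Ehhadh was the single member called, and Cyp4a1 and Eci1 both had an adjusted p of 0.0642. Without replicate 3 at 500 mg/kg, Cyp4a1 stood at 0.58 (adjusted p = 0.0924) and Eci1 at 0.52 (adjusted p = 0.123), and the trend called 0 members. At 500 mg/kg Ehhadh and Bdh2 then kept their calls, and Crot and Angptl4 were called lower (adjusted p = 0.0474 and 0.045).

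The 4 liver arrays of the top dose differed among themselves. Replicate 3 was the highest of the 4 arrays for 30 of the 47 members and the lowest for 1, while over the 20028 kept liver probe sets it was the highest for 28.7% and the lowest for 21.3%. Replicate 4 was the lowest for 28 of the 47 members, against 23.5% of all kept probe sets. Acot1, a cytosolic acyl-CoA thioesterase, gave the clearest single value. It read 3.65, 3.55, 6.35 and 3.79 at 500 mg/kg, against 3.24, 3.71, 3.48, 2.97 and 3.64 in controls, so that replicate 3 stood alone and the other arrays were near the controls. Acot1 did not pass the filter in liver and was not tested there.

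Among the 7 genes of uptake and activation, 0 were called in liver at 500 mg/kg and the median difference was 0.05. Fabp1, the liver fatty acid binding protein, had the smallest p in this role and read 13.89, 13.97, 14.02 and 13.93, against 13.87, 13.90, 13.92, 13.89 and 13.90 in controls. The difference was 0.06 (SE 0.03, adjusted p = 0.405). Cd36, a fatty acid translocase, was at 6.58 ± 0.21 (SD, n = 4), against 6.35 ± 0.22 (SD, n = 5) in controls, a difference of 0.23 (adjusted p = 0.485). A probe set shared by Cd36 and a related symbol was at 7.88 ± 0.03, against 7.53 ± 0.15 in controls. The acyl-CoA synthetases Acsl1, Acsl3, Acsl4 and Acsl5 and the transporter Slc27a2 differed by -0.14 to 0.06.

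Of the 6 genes of the carnitine shuttle 0 were called in liver at 500 mg/kg, and the median difference was -0.04. Cpt1a, the carnitine palmitoyltransferase that controls entry into mitochondria, read 10.41, 10.13, 9.79 and 9.95, against 10.35, 11.15, 10.29, 10.41 and 10.85 in controls. 1 dosed array lay inside the control range, and the difference was -0.54 (SE 0.18, adjusted p = 0.136). At 0.1, 1, 10, 100 and 300 mg/kg the mean of Cpt1a was instead above control, by 0.48, 0.29, 0.60, 0.21 and 0.17, and its second probe set had the same sign as the first at 500 mg/kg, with -0.64. Crot, which moves shortened chains out of peroxisomes as carnitine esters, read 10.65, 10.82, 11.11 and 10.51, against 11.11, 11.32, 10.98, 11.25 and 11.35 in controls. The groups overlapped through replicate 3, and the difference was -0.43 (SE 0.13, adjusted p = 0.0919). Without that array Crot passed the test, at -0.54 (adjusted p = 0.0474). This was 1 of 9 fits that each left out 1 array, and Crot was not called in the other 8. Without replicate 4 at 500 mg/kg its difference was -0.34 (adjusted p = 0.261). Cpt1b, Cpt2, Crat and the carrier Slc25a20 differed by -0.06 to 0.02.

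**Figure D3:**
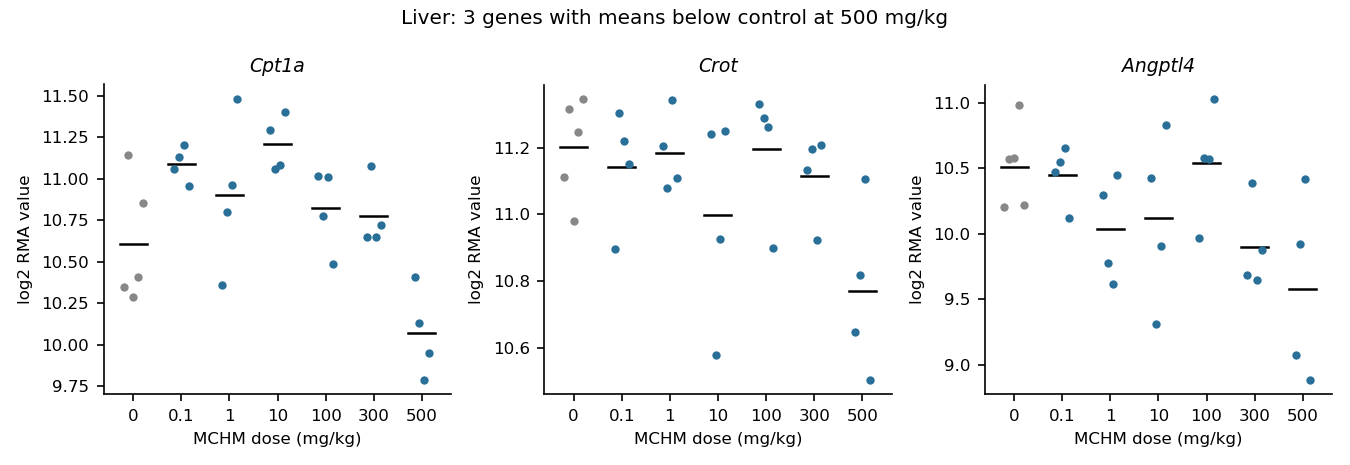
Log2 RMA value of Cpt1a, Crot and Angptl4 on each liver array by dose in mg/kg, with controls in grey, dosed arrays in blue and group means as bars. The means at 500 mg/kg are 0.54, 0.43 and 0.94 below control, 1 array of Cpt1a, 1 of Crot and 1 of Angptl4 lie within the control range, and the mean of Cpt1a is above control at the 5 lower doses.

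Of the mitochondrial spiral, Eci1 was the 1 gene of 11 called in liver at 500 mg/kg. The other 10 differed by -0.11 to 0.09 at 500 mg/kg. These were the acyl-CoA dehydrogenases Acadm, Acadl, Acads and Acadvl, the trifunctional protein subunits Hadha and Hadhb, and Hadh, Echs1, Acaa2 and Decr1. Acadm, the medium-chain dehydrogenase, was at 12.35 ± 0.10 (SD, n = 4), against 12.26 ± 0.05 (SD, n = 5) in controls. Acaa2, the last enzyme of the spiral, was measured by a bright and a dimmer probe set, with differences of -0.02 and -0.47 at 500 mg/kg (adjusted p = 0.147 for the dimmer). At 300 mg/kg they were at -0.34 and -0.40 (adjusted p = 0.542 and 0.533 with every probe set tested). In that fit the dimmer probe set passed the trend test, with a slope of -0.09 per rank (SE 0.02, adjusted p = 0.0429), while the bright one, which stands for the gene, had a slope of -0.03 (adjusted p = 0.487). The electron transfer flavoprotein subunits, which take the electrons from these dehydrogenases, were Etfa at 0.10 (SE 0.04, adjusted p = 0.202) and Etfb at 0.11 (SE 0.05, adjusted p = 0.233), and Etfdh was at 0.03. Etfa read 11.89, 11.90, 11.99 and 11.92 at 500 mg/kg, against 11.73, 11.84, 11.93, 11.77 and 11.85 in controls, so the groups overlapped.

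In the peroxisomal role Ehhadh stood alone: the other 7 genes differed by -0.16 to 0.12 at 500 mg/kg. Hsd17b4, the second bifunctional enzyme, differed by 0.04, the thiolase Scp2 by 0.02, and Pex11a, a peroxisome proliferation factor and PPAR alpha target, by -0.08, with its second probe set at 0.00407. The omega-hydroxylases were as uneven, with Cyp4a1 at 0.69, Cyp4a3 at -0.23 (SE 0.16, adjusted p = 0.543) and Cyp4a8 at 0.19. The 2 probe sets of Cyp4a8 had opposite signs, at 0.19 and -0.27. The probe set shared by Cyp4a2 and Cyp4a3 was at 12.59 ± 0.25, against 12.77 ± 0.10 in controls. These genes are close relatives, and the array cannot fully separate their transcripts. Among thioesterases, which release free fatty acids from acyl-CoA, Acot3 read 5.59, 5.84, 6.52 and 5.34, against 6.20, 6.42, 6.06, 6.17 and 6.17 in controls. Its difference was -0.38 (SE 0.17, adjusted p = 0.323), with replicate 3 above every control and the other 3 arrays below every control.

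The ketone body genes Acat1 and Bdh1 differed by 0.11 and -0.13 in liver at 500 mg/kg, and neither passed the test. The 3 signal targets, regulators that PPAR alpha also controls, had 0 calls. Angptl4, a secreted inhibitor of lipoprotein lipase, read 9.07, 9.92, 10.42 and 8.88, against 10.21, 10.57, 10.58, 10.98 and 10.22 in controls. Of the dosed arrays, 3 lay below every control and replicate 3 lay within the control range, for a difference of -0.94 (SE 0.28, adjusted p = 0.103). Without replicate 3 it was -1.22 (adjusted p = 0.045), and without replicate 4 it was -0.71 (adjusted p = 0.306). Of 9 fits that each left out 1 array, 8 did not call Angptl4. Over all 17 alternatives tried, 15 left it uncalled and 2 called it. Of these 2, 1 was outside those 9 fits (adjusted p = 0.0448). Pdk4, the kinase that shuts pyruvate out of the citric acid cycle, differed by 0.03, with its second probe set at -0.00252, and Vnn1, a pantetheinase, by 0.04.

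Markers of other cells also differed on the liver arrays at 500 mg/kg. All 5 measured macrophage markers had lower means, with a median difference of -0.28. Each had an unadjusted p under 0.05, against 13.9% of all genes. Limma called 0 of the 5 at 500 mg/kg, against 0.958% of all genes. The trend, which called 1.84% of all genes, called Adgre1 and Csf1r lower, with slopes of -0.07 and -0.04 (adjusted p = 0.0159 and 0.0262). The summed macrophage level was 10.70 to 11.30 at 500 mg/kg, against 11.10 to 11.30 in controls. Of the 7 hepatocyte markers, Tat, the tyrosine aminotransferase, rose by 1.39 (adjusted p = 0.0191) and Apoa1 fell by 0.30 (adjusted p = 0.0245), and the other 5 differed by -0.11 to 0.05. Of the 7 adipose markers tested, 0 were called and 4 were above 0. Their differences ran from -0.58 for Fabp4 to 0.84 for Cidea, with 5 at an unadjusted p under 0.05, against 13.9% of all genes. The summed adipose level was 10.36 to 10.64 at 500 mg/kg, against 10.24 to 10.36 in controls, and Adipoq was at 3.76 to 3.97, against 3.59 to 4.29 in controls. The part of these marker differences in the members' values was not tested.

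In kidney, limma called 0 of 47 members at each of the 6 doses. Of all 11204 genes it called 0% at 0.1, 1, 10 and 100 mg/kg and 0.0268% at both 300 and 500 mg/kg. From the lowest dose to the highest, 0, 2, 1, 1, 7 and 8 members had an unadjusted p under 0.05, against 8.14%, 9.33%, 6.27%, 4.81%, 5.74% and 9.58% of all genes. All kidney groups shared 1 estimate of the spread, so the arrays with fat transcripts entered the SE at the lower doses too. Without them the SE of Cd36 at 300 mg/kg was 0.17, against 0.56 with all arrays, and that of Acot4 was 0.15, against 0.13. Doses of 100 mg/kg and below were not refitted without those arrays. The median difference of the members was 0.11 at 300 mg/kg and 0.07 at 500 mg/kg, and that of all genes was -0.00253 and 0.02. The trend over dose ranks called 2 members, against 0.152% of all genes, and 11 had an unadjusted p under 0.05, against 9.76%. Cyp4a1 rose by 0.08 per rank (SE 0.02, adjusted p = 0.034), and Cpt1a fell by 0.06 per rank (SE 0.01, adjusted p = 0.034). With dose in mg/kg as the term, 5 members were called in kidney, against 1.65% of all genes. That fit held the arrays with fat transcripts and was not repeated without them.

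The arrays with fat transcripts bear on these values. On 19 of 47 members replicate 3 at 300 mg/kg and replicate 3 at 500 mg/kg were the 2 highest of the 29 kidney arrays, which held for 2.85% of the 19675 kept probe sets. The 19 were 8 of 11 genes of the mitochondrial spiral, 3 of 3 of electron transfer, 3 of 6 of the carnitine shuttle, Acsl1, Cd36, Eci2, Angptl4 and Pdk4. Of the omega-hydroxylases and thioesterases, 0 of 3 and 0 of 4 behaved so. Cd36 read 10.89 and 9.61 on these arrays and 6.39 to 7.41 on the 27 others. Cpt1b, the muscle and brown fat form of the carnitine palmitoyltransferase, read 10.84 and 9.63, with the others at 5.83 to 7.39. Pdk4 read 10.56 and 9.02, with the others at 5.63 to 6.70, and Acsl1 12.44 and 11.58, with the others at 9.82 to 10.36. For each of these genes both arrays thus lay above every other array, dosed or control.

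**Figure D4:**
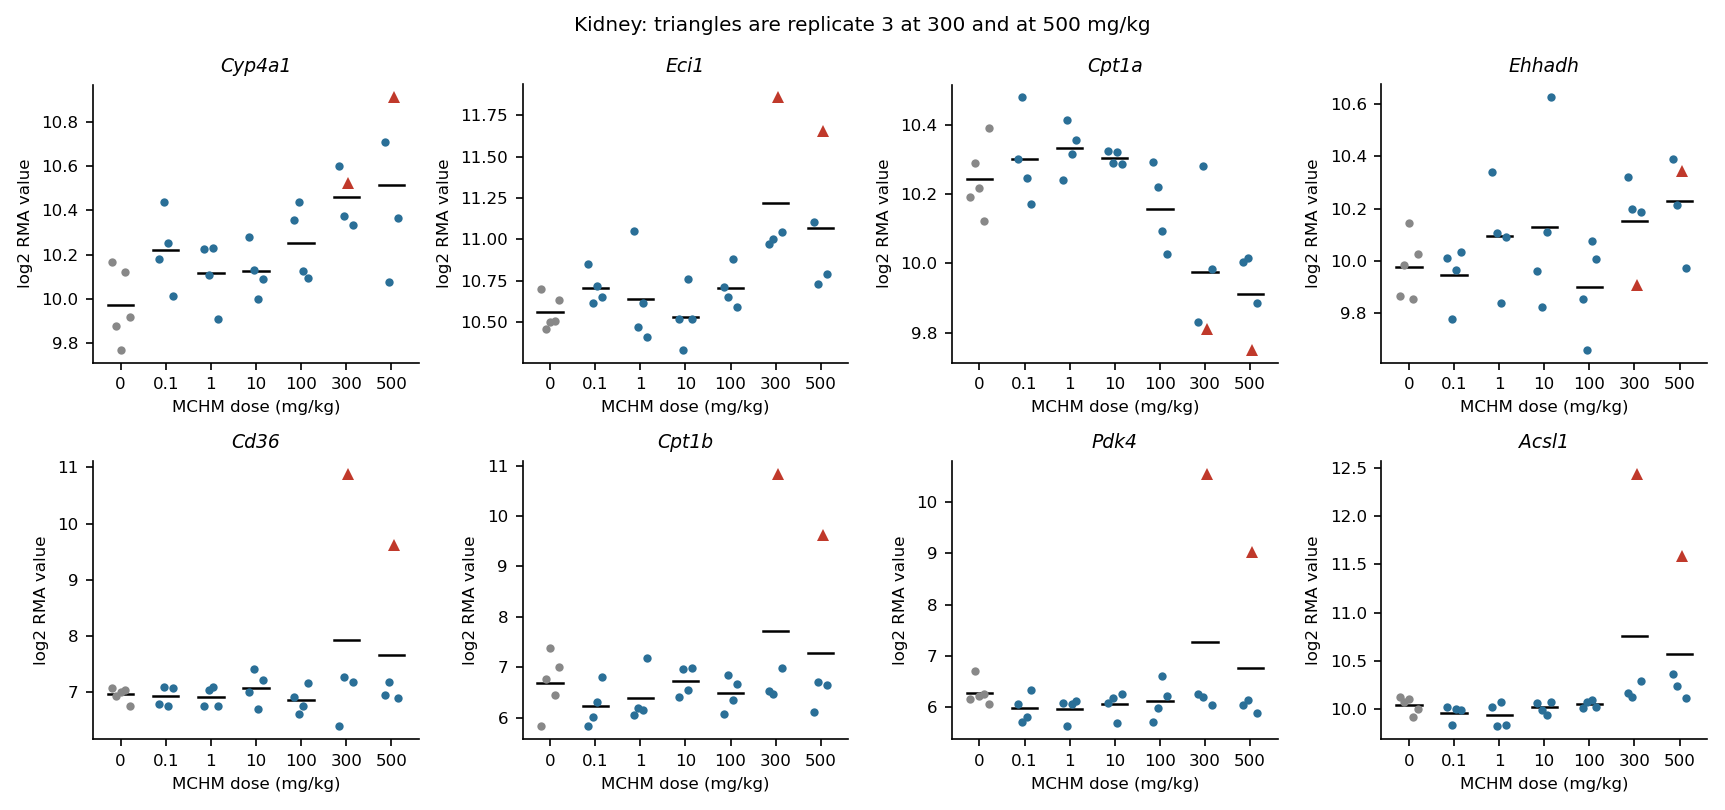
Log2 RMA value of 8 members on each kidney array by dose in mg/kg; grey points are controls, blue points dosed arrays, red triangles replicate 3 at 300 and at 500 mg/kg, and bars the means over all arrays. In the lower row the triangles lie 1.23 or more above all 27 other arrays, and in the upper row both lie above all others for Eci1 alone.

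Without both arrays, the median difference of the members was 0.000968 at 300 mg/kg, with 24 of 47 above 0 in place of 35. At 500 mg/kg it was -0.00696, with 21 above 0 in place of 31. The number of members that differed by more than 0.25 was 4 at 300 mg/kg, against 16 with all arrays, and 4 at 500 mg/kg, against 11 with all arrays. The difference of Cd36 at 300 mg/kg was -0.02, against 0.97 with all arrays, and that of Pdk4 was -0.11, against 0.98 with all arrays. Limma then called 0 members at 300 mg/kg, at 500 mg/kg and in the trend, against 0%, 0.0179% and 0% of all genes, with 6, 8 and 11 of 47 members at an unadjusted p under 0.05, against 3.46%, 7.13% and 6.99% of all genes.

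Cyp4a1 was among the members that kept most of their size without those arrays. It read 10.60, 10.37, 10.53 and 10.33 in kidney at 300 mg/kg and 10.71, 10.08, 10.91 and 10.37 at 500 mg/kg, against 10.17, 9.88, 9.77, 10.12 and 9.92 in controls. All 4 arrays at 300 mg/kg were above every control, and at 500 mg/kg replicate 2 lay within the control range. The differences were 0.49 (SE 0.12, adjusted p = 0.5) and 0.54 (SE 0.12, adjusted p = 0.0792). Without both arrays they were 0.47 and 0.41 (adjusted p = 0.662 and 0.414), and the slope per rank was 0.06 (adjusted p = 0.269). Without control replicate 2, the one with liver transcripts, the slope was 0.08 (adjusted p = 0.0749), so the call was lost without that array too.

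Cpt1a, which had its lowest liver mean at 500 mg/kg, was also low in kidney at the upper doses. It read 9.83, 10.28, 9.81 and 9.98 at 300 mg/kg and 10.00, 10.01, 9.75 and 9.88 at 500 mg/kg, against 10.19, 10.29, 10.22, 10.12 and 10.39 in controls. At 500 mg/kg every dosed array was below every control, for a difference of -0.33 (SE 0.08, adjusted p = 0.0918). The 2 arrays with fat transcripts were the lowest at their doses. Without them the difference at 500 mg/kg was -0.27 (adjusted p = 0.414) and the slope per rank -0.05 (adjusted p = 0.269). Without control replicate 2 the slope was -0.06 (adjusted p = 0.0477). The second probe set of Cpt1a differed by -0.30 at 500 mg/kg.

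Eci1 was above every control on all kidney arrays at 300 and 500 mg/kg. It read 10.97, 11.00, 11.86 and 11.04 at 300 mg/kg and 11.10, 10.73, 11.65 and 10.79 at 500 mg/kg, against 10.70, 10.46, 10.50, 10.51 and 10.63 in controls. The differences were 0.66 (SE 0.17, adjusted p = 0.5) and 0.51 (SE 0.17, adjusted p = 0.253), and the replicate 3 arrays were the highest at both doses. Without them the differences were 0.45 and 0.31 (adjusted p = 0.658 and 0.529). Ehhadh read 10.39, 10.21, 10.35 and 9.97 at 500 mg/kg, against 9.87, 9.98, 10.15, 9.85 and 10.03 in controls. Its groups overlapped through replicate 4, and the difference was 0.26 (SE 0.13, adjusted p = 0.534).

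The other roles had no call in kidney, and the member with the smallest p at 500 mg/kg overlapped with controls in each. Slc27a2, a very long chain acyl-CoA synthetase and transporter, read 12.28, 12.29, 12.11 and 12.23, against 12.02, 12.11, 12.14, 12.15 and 12.08 in controls. Etfb read 11.73, 11.63, 11.94 and 11.56, against 11.47, 11.39, 11.58, 11.37 and 11.57 in controls. The differences were 0.13 (adjusted p = 0.546) and 0.24 (SE 0.08, adjusted p = 0.27), and for Etfb the highest value was that of the replicate 3 array. Hsd17b4 read 11.30, 11.12, 11.13 and 11.06, against 11.28, 11.40, 11.57, 11.19 and 11.47 in controls, a difference of -0.23 (adjusted p = 0.458). The ketone body enzyme Bdh1 read 7.59, 7.98, 7.20 and 7.67, against 7.36, 7.86, 8.14, 7.91 and 8.01 in controls, a difference of -0.24 (adjusted p = 0.574). For Hsd17b4 replicate 1 lay within the control range, and for Bdh1 only replicate 3, the array with fat transcripts, lay outside it. Without the 2 arrays with fat transcripts the difference of Bdh1 was -0.11 (adjusted p = 0.926). Acot4, a peroxisomal thioesterase, read 8.41, 8.18, 8.45 and 7.95, against 8.40, 7.87, 7.77, 7.94 and 7.68 in controls, a difference of 0.31 (adjusted p = 0.431). Vnn1 read 9.87, 9.34, 10.16 and 9.29, against 9.90, 9.34, 9.01, 9.14 and 9.11 in controls, a difference of 0.36 (adjusted p = 0.557). In both genes control replicate 1 stood among the dosed arrays, and without the 2 arrays with fat transcripts the difference of Vnn1 was 0.20 (adjusted p = 0.911). Probe sets of 3 members differed in direction in kidney at 500 mg/kg: those of Cyp4a8 were at -0.13 and 0.02, those of Scp2 at -0.02 and 0.03, and those of Crot at -0.20, -0.12 and 0.09. Without the 2 arrays with fat transcripts, the first of these values was -0.06 for Cyp4a8, -0.03 for Scp2 and -0.12 for Crot. Fabp1 was near the floor of the array in kidney, at 3.04 to 3.82 on 28 arrays, and read 6.01 on control replicate 2.

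Kidney arrays that did not overlap with controls were found for 5 members at 300 mg/kg, against 1.38% of all genes. They were Acsl1, Cyp4a1, Eci1 and Eci2 above and Acot1 below. Without the arrays with fat transcripts, the difference at 300 mg/kg was 0.15 for Acsl1, against 0.71 with all arrays, and 0.15 for Eci2, against 0.31 with all arrays. The top dose had 4, against 3.19% of all genes, with Eci1 and Pex11a above and Acot1 and Cpt1a below. Acot1 read 10.78, 10.65, 10.80 and 10.63 at 500 mg/kg, against 10.97, 10.82, 10.81, 10.96 and 10.84 in controls, a difference of -0.17 (SE 0.08, adjusted p = 0.505). At 0.1 mg/kg Acox3 and Decr1 were above, against 1.87% of all genes, and at 1 mg/kg Acsl3 was below, against 1.92%. At 10 and 100 mg/kg 0 members were apart, against 1.63% and 1.45%.

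**Figure D5:**
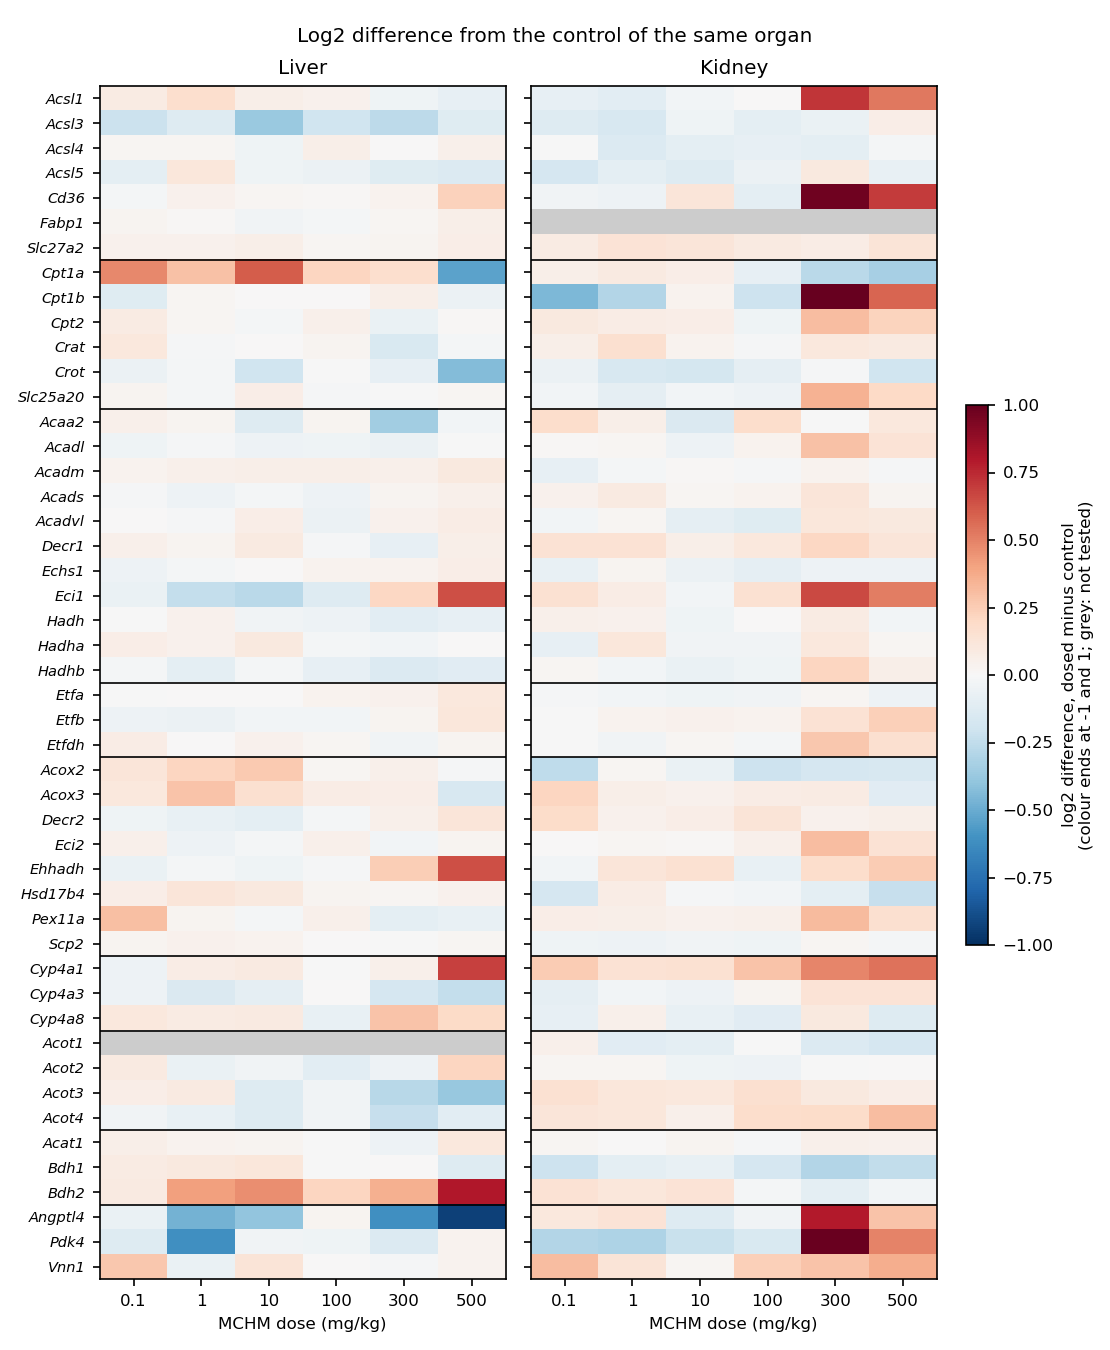
Log2 difference from the control of the same organ for each member (rows, by role) at 6 doses in mg/kg, in liver (left) and kidney (right); red is higher and blue lower than control, the colour ends at -1 and 1, and grey is not tested. Of 47 members, 31 stay within 0.25 of control at every dose in liver and 28 in kidney, and the strongest kidney colours, at 300 mg/kg, include the replicate 3 array.

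The liver difference minus the kidney difference was tested for 48 members in 1 fit over all 58 arrays. At 300 mg/kg 0 members were called, against 0% of all 11813 genes, and at 500 mg/kg 0 were called, against 0.119%. Members with an unadjusted p under 0.05 numbered 10 and 8 of 48, against 5.5% and 8.49% of all genes. Without the kidney arrays that carried fat transcripts, 0 members were called at either dose, against 0% and 0.0423% of all genes, with 4 and 9 of 48 at an unadjusted p under 0.05, against 4.32% and 7.31% of all genes. The 48 held Acot1, too dim to test in liver alone, and Fabp1, too dim to test in kidney alone. Each was in this fit through the organ where it is high. In both fits Fabp1 was among the members under 0.05 at 300 mg/kg, and Acot1 among those at 500 mg/kg. With all arrays their values there were 0.75 and 1.09. For Fabp1 the kidney controls included replicate 2, at 6.01, where the 28 other kidney arrays read 3.04 to 3.82. For Acot1 the liver arrays at 500 mg/kg included replicate 3, which stood alone above the others. Neither of these fits left out that array, so the 2 values are not read as a difference between organs. The smallest p at 500 mg/kg was that of Bdh2, at 0.82 (SE 0.21, adjusted p = 0.0855), where the liver difference was 0.80 and the kidney difference -0.02. Ehhadh differed between organs by 0.39 (SE 0.18, adjusted p = 0.541), Cyp4a1 by 0.14 (SE 0.20, adjusted p = 0.91) and Eci1 by 0.14 (SE 0.23, adjusted p = 0.932). For these 3 genes a difference between organs did not pass the test. Without the kidney arrays that carried fat transcripts it was 0.27 for Cyp4a1 (adjusted p = 0.84) and 0.33 for Eci1 (adjusted p = 0.774). Bdh2 was then at 0.81 (adjusted p = 0.172), and the smallest p was that of Etfa, at 0.21 (adjusted p = 0.13).

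Of 123 other genes of the pathway, 107 were tested in liver, and at 500 mg/kg 3 were called higher and 1 lower, against 0.958% of all genes called in either direction. Those with an unadjusted p under 0.05 numbered 29 of 107, against 13.9% of all genes. Pex14, part of the import channel of peroxisomes, was at 8.60 ± 0.04 (SD, n = 4), against 8.22 ± 0.07 (SD, n = 5) in controls, a difference of 0.38 (SE 0.06, adjusted p = 0.00371). Dbi, the acyl-CoA binding protein, was higher by 0.23 (SE 0.04, adjusted p = 0.00515). Slc16a6, a monocarboxylate transporter linked to ketone body export in zebrafish, was higher by 0.64 (SE 0.16, adjusted p = 0.0465). Fabp7, a fatty acid binding protein best known from brain, fell by 0.54 (SE 0.13, adjusted p = 0.04). The trend called these 4 as well, and also Ncor1, a corepressor of nuclear receptors, with a slope of -0.04 (SE 0.01, adjusted p = 0.0471), against 1.84% of all genes called. In the trend 29 of 107 had an unadjusted p under 0.05, against 16.6% of all genes. The lists without a call had as their smallest p at 500 mg/kg Ncor1 at -0.28, Acot8 at 0.22, Cidec at 0.27, Ucp2 at -0.30, Bbox1 at -0.19 and Cyp4b1 at -0.27 (adjusted p between 0.11 and 0.326). Among the members and this wider list, Ehhadh, Pex14 and Dbi had the smallest adjusted p at the top dose.

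In kidney, 98 of the 123 were tested, and 0 were called at 300 or 500 mg/kg, with 18 and 12 (18.4% and 12.2%) at an unadjusted p under 0.05, against 5.74% and 9.58% of all genes. Without the arrays with fat transcripts these were 9 and 10 (9.18% and 10.2%), against 3.46% and 7.13% of all genes. The trend called 2, both higher with dose, against 0.152% of all genes, with 22 (22.4%) at an unadjusted p under 0.05, against 9.76% of all genes. Without those arrays the trend called 0, against 0% of all genes, with 14 (14.3%) at an unadjusted p under 0.05, against 6.99%. Cyp2e1, an ethanol and ketone oxidising cytochrome, had a slope of 0.11 (SE 0.02, adjusted p = 0.0283), and Amacr, which turns branched chains into the form that can be oxidised, one of 0.04 (SE 0.01, adjusted p = 0.0283). Without those arrays the slope was 0.10 (SE 0.02, adjusted p = 0.172) for Cyp2e1 and 0.05 (SE 0.01, adjusted p = 0.0557) for Amacr. At 500 mg/kg the smallest p in each list were those of Amacr at 0.28, Acsm1 at 0.53, Cyp2e1 at 0.60, Ppard at 0.48, Gpd1 at 0.52, Pex7 at -0.17, Oxct1 at -0.09, Ucp2 at -0.22 and Shmt1 at -0.08 (adjusted p between 0.0775 and 0.64).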

How the data were processed

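Gene expression was measured on Affymetrix rat genome arrays, 29 from liver and 29 from kidney. The deposited values are log2 levels made with RMA, per the submitters' processing notes; its version, and whether the organs were normalized together, are not given in the sources used here. No pair of arrays held identical values. The arrays limit precision by their number, 4 or 5 per group.

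Probe sets naming several genes were left out, and those above the 40th percentile of their own array on at least 4 arrays of the organ were kept. The brightest probe set stood for each gene. Differences were tested with limma 3.58.1 (lmFit and eBayes with a mean trend) in R 4.3.3, in 1 fit per organ over all genes, with Benjamini-Hochberg adjustment over all of them; every adjusted p here is limma's. The dose trend used the rank of dose, 0 to 6. The members, the other pathway lists and the rule for naming genes were chosen with earlier results of these data known. The rule named every called member, the member with the smallest p at 500 mg/kg of each role and organ, members whose probe sets disagreed or that were not tested, and of each other list the called genes or else the one with the smallest p. Cd36, Acadm, Acox2, liver Cpt1a and the kidney members highest on the arrays with fat transcripts were named after their values were seen. Scripts were tested on simulated data. Alternatives were other filters, probe-set rules, normalizations, weights and dose scales, a replicate block and leaving out arrays. Same-numbered arrays at 500 and 0 mg/kg did not deviate together. Their correlations ran from -0.18 to 0.06 in liver and from -0.36 to 0.07 in kidney, and the numbers were not taken to pair arrays. Same-numbered arrays at 300 and 500 mg/kg were not compared in this way, and replicate 3 of the kidney carried fat transcripts at both doses.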

Additional observations from a re-analysis of the deposited data

Results flagged for a closer look

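Over 126 groups of arrays of the genes named by rule, 5 held an array whose distance to its nearest neighbour exceeded Dixon's critical value for the share of the group's range; about 5% of groups are expected to do so by chance. Eci1 read 11.86 on replicate 3 of the kidney at 300 mg/kg, where the next array was at 11.04; this array also carried adipose transcripts, and their part in the value was not tested. Crot read 10.90 on replicate 4 of the liver at 100 mg/kg, below the next array at 11.26. Fabp1 read 13.93 on replicate 1 of the liver at 100 mg/kg, above the next at 13.86, and 13.89 on replicate 4 at 300 mg/kg, below the next at 13.92. Bdh1 read 7.77 on replicate 3 of the kidney at 0.1 mg/kg, above the next at 7.62.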

How the results depend on the processing

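Of the values recomputed, none changed sign while called, and the counts of called members moved as follows. In liver at 500 mg/kg, where 4 members were called, the replicate block left 1, Ehhadh. Leaving out single arrays gave 1 to 4, with 1 without control replicate 5 and 2 without control replicate 4 or replicate 1 at 500 mg/kg. Without replicate 3 at 500 mg/kg, Eci1 and Cyp4a1 were lost, and Crot and Angptl4 were called lower. In the liver trend, where 2 were called, the 60th percentile filter and the replicate block each left 1, dose in mg/kg gave 11, and single arrays gave 0 to 3, with 0 without replicate 3 at 500 mg/kg and 1 without control replicate 5 or replicates 1, 2 or 4 at 500 mg/kg. In kidney at 500 mg/kg, where 0 were called, array quality weights gave 1 (Cyp4a1), and leaving out single arrays gave 0 to 1, with Cyp4a1 called without control replicate 1 or replicate 2 at 500 mg/kg. In the kidney trend, where 2 were called, the replicate block and the fit without replicate 3 at 300 and 500 mg/kg each gave 0, dose in mg/kg gave 5 (Cpt1a, Cyp4a1, Cyp4a3, Eci1 and Etfb), and single arrays gave 0 to 2, with 0 without control replicate 5 or replicates 1, 3 or 4 at 500 mg/kg and 1 without control replicate 2 or replicate 2 at 500 mg/kg. The kidney fit with dose in mg/kg was not repeated without replicate 3 at 300 and 500 mg/kg. Among the other pathway genes, the kidney trend called 2, and 0 without replicate 3 at 300 and 500 mg/kg. That setting was chosen for this list after seeing the data. For the liver minus kidney difference at 500 mg/kg, where 0 were called, array quality weights gave 1 (Bdh2). Under the 60th percentile filter Bdh2 was not kept in liver, so its missing call there was that of an untested gene. The cause of the other moves was not tested. The labels do not say that arrays of the same replicate number belong together. Whether a call lost under the replicate block shows a weaker effect was not tested. The signal of Bdh2 in liver lay near the array median, and Acot1 in liver and Fabp1 in kidney were too dim to test within that organ.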
